A study of Mus musculus with 95 samples.

Results

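The livers of mice after 3 months in a torpor-like state (TLS) are compared here with livers of mice taken at time zero (T0). Both sets of libraries were chosen by their tissue and treatment labels, where the label Stim is read as TLS from the title of the study, and they make up 16 of the 95 libraries of the series, which also covers cortex, kidney and white adipose tissue (WAT). By the ages in the header of the count table, the 8 TLS mice were 29.3 weeks old and the 8 T0 mice 17.4 weeks old, and each group held 4 mice labelled F and 4 labelled M. A further 8 livers came from control mice that had passed the same 3 months without TLS, were also 29.3 weeks old and were again 4 F and 4 M. All of these mice were C57BL/6J, the common inbred laboratory strain, and all were perfused with PBS before the organ was taken. The labels name no transgene, Cre driver or other agent for any group, and they do not say how TLS was brought about. TLS mice were older than T0 mice by the same 3 months that they spent in the state, so TLS and age cannot be told apart in TLS against T0. The values of the control livers are therefore given beside many of the genes described.

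In torpor a small mammal lowers its metabolism and its body temperature and lives largely on its own stores. The liver then supplies other organs with glucose and ketone bodies, and in the fed state it turns surplus sugar into lipid, makes cholesterol and bile acids, breaks down amino acids and secretes most plasma proteins. Rodent liver also differs strongly between the sexes in its cytochromes, sulphotransferases and major urinary proteins, through the different rhythms of growth hormone release in male and female animals.

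The values were counts of reads per gene from polyadenylated RNA. Total counts ran from 4031533 to 29269511 in the TLS livers, with a median of 16626022, and from 15633658 to 22816521 in the T0 livers, with a median of 16746630. TLS animal B51B had the lowest total of all and TLS animal A5DA the highest. Xist and Y-linked counts matched the sex label in 24 of the 24 liver libraries, and the 84 pairs of libraries within a group all differed by far more than sampling noise. The 11 hepatocyte markers tested had a median log2 fold change near zero (-0.00), with 0 called, and their summed level was 52140 to 118000 CPM (counts per 1e6 counts of the tested genes, after TMM scaling between libraries) in TLS livers, 82940 to 141700 CPM in control livers and 70180 to 109600 CPM in T0 livers, so the label of the tissue held in every library. In TLS animal A5DA, whose TMM factor of 0.686 raises its CPM above a plain share of counts, 39.1% of all counts came from acute phase proteins, against at most 3.73% in the other 7 TLS livers and at most 3.95% in the T0 livers. The mitochondrial share was 0.719% to 9.62% in TLS livers and 2.65% to 7.42% in T0 livers. Mice of one group are separate animals by their labels, so the errors below are between animals. All 24 liver libraries carry the same batch label. The library numbers of the TLS livers were interleaved with those of the F T0 livers, whereas the M T0 livers all had higher numbers than any TLS liver. The control livers, F and M alike, also all had higher numbers than any TLS liver. TLS minus control therefore compares separate ranges of library numbers in both sexes, and the part of library order in it was not tested.

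A small share of the liver transcriptome differed between TLS and T0. Of 13604 genes tested with edgeR, 182 (1.34%) passed an adjusted p of 0.05 for TLS against T0, of which 80 (0.588%) were higher and the others (0.75%) lower in TLS. Among them 59 rose and 72 fell by more than 2-fold. The shares of 0.588% higher and 0.75% lower are those to set beside each count of list members called below. In 40 genes (0.294%) the TLS and T0 libraries did not overlap in CPM: 12 (0.0882%) had every TLS liver above every T0 liver, all 12 of them called, and 28 (0.206%) had every TLS liver below every T0 liver, 21 of them called. At an unadjusted p below 0.05 there were 2021 genes (14.9%). The median log2 fold change over all genes was 0.05, and the biological coefficient of variation was 0.377. The same fit called 265 genes (1.95%) between TLS and control livers and 72 genes (0.529%) between control and T0 livers. These 3 comparisons share libraries. The number of genes called for TLS against T0 moved with single animals: it was 100 without TLS animal B51B, 384 without TLS animal 47BE, 92 without T0_2, and at most 120 without any 1 of T0_5, T0_6, T0_7 and T0_8. Leaving out A5DA alone gave 175 and leaving out B23B gave 256. The control livers are part of the fit and share its estimate of the spread. With the TLS and T0 libraries only, 55 genes were called (18 higher, 37 lower). Of the 63 genes called and named in the text, 31 then lost their call.

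**Figure D1:**
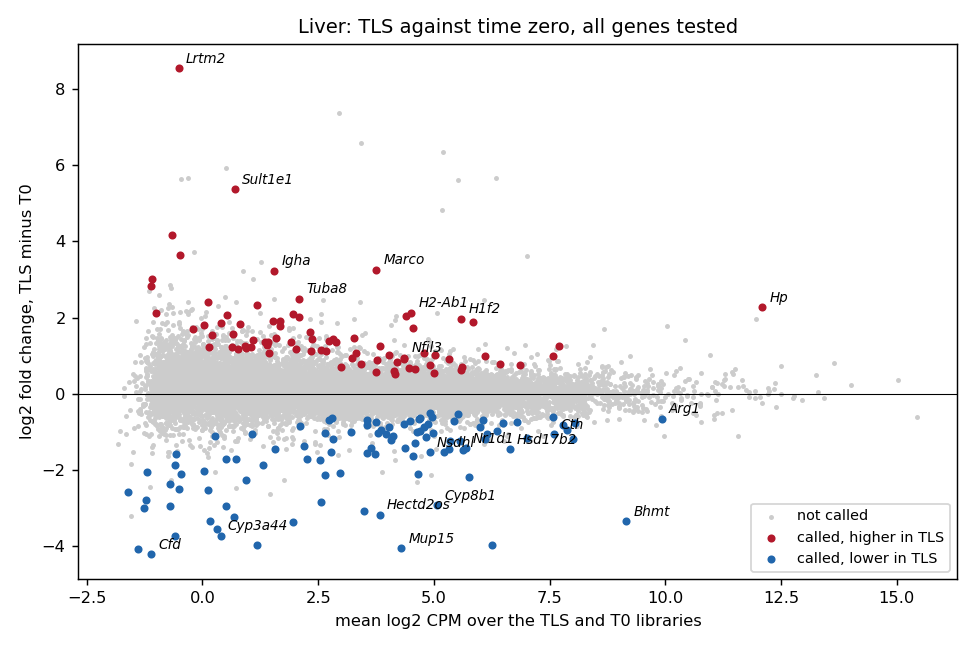
Log2 fold change of TLS minus T0 (vertical axis) against the mean log2 CPM over both groups (horizontal axis) for the 13604 genes tested in liver. Red points are the 80 genes called higher in TLS, blue points those called lower and grey points the rest, and some of the genes described in the text are named.

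Among metabolic genes that fell was Bhmt, the betaine-homocysteine methyltransferase that returns homocysteine to methionine in the liver (chr13:93616675-93637961, minus strand, GRCm38). Its level was 77.3 to 236 CPM in the F and 120.4 to 432 CPM in the M TLS livers, with a median of 150 CPM, against 854 to 3356 CPM in the F and 1256 to 2974 CPM in the M T0 livers, with a median of 1905 CPM. No TLS liver reached the lowest T0 liver, and the log2 fold change was -3.34 ± 0.44 (SE, n = 8 each; edgeR adjusted p = 9.15e-05). Control livers had a median of 1484 CPM, with TLS minus control at -3.13 (adjusted p = 0.000319) and control minus T0 at -0.21 (adjusted p = 0.835). Cth, the cystathionine gamma-lyase that completes the conversion of homocysteine to cysteine, was also lower in every TLS liver than in any T0 liver, at 103.5 to 163 CPM (median 140 CPM) in TLS livers and 166 to 425 CPM (median 279 CPM) in T0 livers. Its log2 fold change was -1.06 ± 0.18 (adjusted p = 0.00158), with a control median of 206 CPM and TLS minus control at -0.68 (adjusted p = 0.0423). Mthfd1l, a mitochondrial folate enzyme, rose by 1.82 ± 0.42 (adjusted p = 0.023) at low levels, 1.68 to 12.3 CPM in TLS livers and 0.325 to 1.77 CPM in T0 livers. Its adjusted p was 0.0607 without T0_2. Of the 26 genes of the serine, folate and methionine cycles that were tested, 1 rose and 2 fell, the median log2 fold change was -0.20, and 7 were positive. Bhmt and Cth kept their call without any single library.

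**Figure D2:**
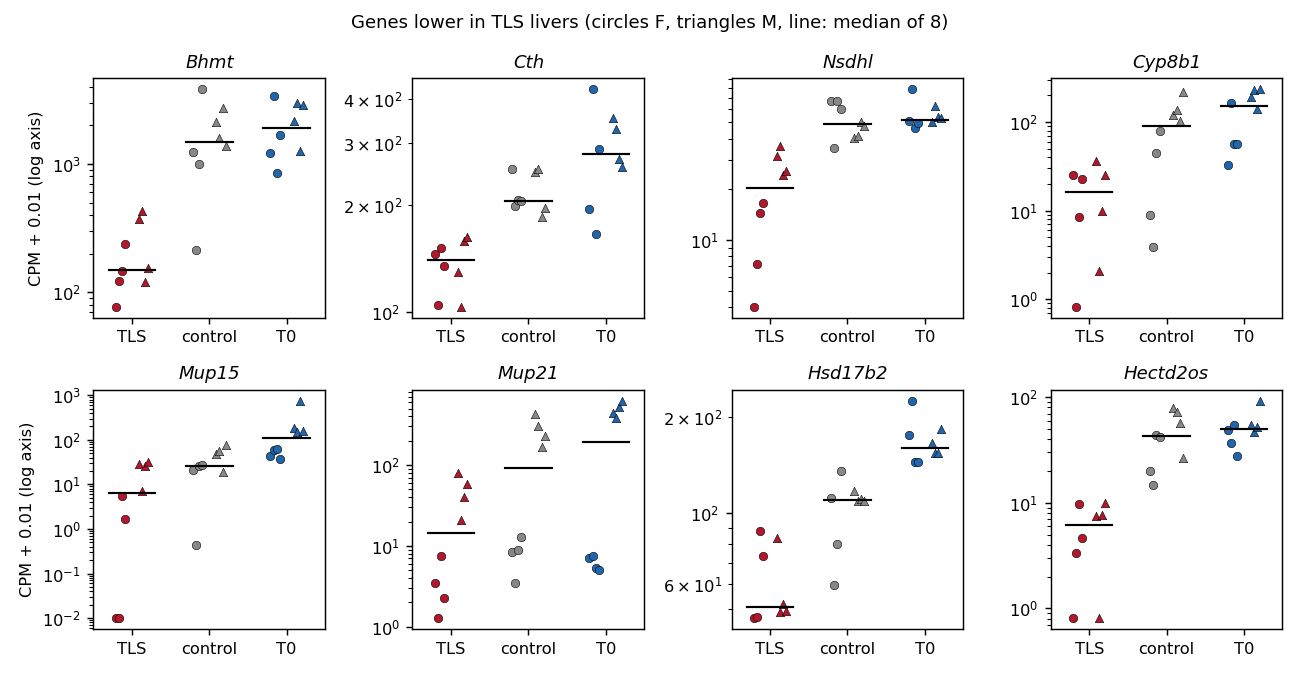
CPM in each liver library (vertical log axis, with 0.01 added so that zeros can be drawn) for 8 genes that were lower in TLS, in TLS, control and T0 livers. Circles are F mice, triangles M mice, and the line is the median of 8. In Bhmt, Cth, Nsdhl, Mup15, Hsd17b2 and Hectd2os every TLS liver lay below every T0 liver, while Mup21 fell in the M livers and was low in all F livers.

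In the urea cycle and amino acid breakdown, 3 of 42 genes fell, against 0.75% of all genes tested. Kynu, the kynureninase of tryptophan breakdown, was at 25.9 to 69 CPM in TLS livers (median 49.6 CPM), 56.9 to 80.5 CPM in control livers and 69.5 to 160 CPM in T0 livers (median 103.4 CPM). TLS and T0 livers did not overlap, and the log2 fold change was -1.19 ± 0.17 (edgeR adjusted p = 0.000309). Amt, the aminomethyltransferase of glycine cleavage, fell by 0.78 ± 0.17 on the log2 scale (adjusted p = 0.0142), with 7 of 8 TLS livers below every T0 liver. Arg1, the arginase of the urea cycle, was at 604 to 978 CPM in TLS livers and 1095 to 1521 CPM in T0 livers, again without overlap (-0.65 ± 0.16, adjusted p = 0.0403). Those 3 are the members called, 14 of the 42 were positive, and the median log2 fold change of the list was -0.16. DESeq2 called 6 lower and 1 higher, and limma 8 lower. Kmo, the step before Kynu, was at 92.2 to 190 CPM in TLS livers and 162 to 284 CPM in T0 livers, and missed the threshold (-0.60 ± 0.16, adjusted p = 0.0583). The call of Arg1 was lost without any 1 of TLS animals B51B, B4B9, B03E, A5DA and E46E or any 1 of the 8 T0 animals, with adjusted p from 0.0535 to 0.0824. Without 47BE, 5 of the 42 were called lower.

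In cholesterol synthesis 2 of 24 genes fell. Nsdhl, a sterol dehydrogenase late in the pathway (chrX:72918557-72958514, plus strand), was at 4, 7.17, 14.5 and 16.6 CPM in the F and 31.5, 36.1, 24.3 and 25.7 CPM in the M TLS livers, against 50.5, 78.4, 46.2 and 49.6 CPM in the F and 50.2, 62.7, 53.3 and 53 CPM in the M T0 livers. All TLS livers were below all T0 livers (-1.54 ± 0.28, adjusted p = 0.00415), and TLS minus control was -1.43 (adjusted p = 0.00859). Lss, the lanosterol synthase that closes the sterol rings, was at 10.4 to 25.1 CPM in TLS livers and 28.7 to 62.5 CPM in T0 livers, without overlap (-0.87 ± 0.21, adjusted p = 0.0349). They were the 2 members called by edgeR, against 5 by DESeq2 and 12 by limma, all lower, and 21 of the 24 had a negative log2 fold change, with a median of -0.67. The median was -0.95 with F libraries only and -0.08 with M libraries only. Hmgcs1, the HMG-CoA synthase at the entry of the pathway, was lower than every T0 liver in 7 of 8 TLS livers (-1.25 ± 0.36, adjusted p = 0.0766). The exception was A5DA, at 224 CPM against 117.4 to 468 CPM in T0 livers. Sc5d, another late enzyme, gave -0.74 ± 0.20 (adjusted p = 0.053). Without A5DA, 9 of the 24 genes were called lower, without 47BE it was 4, and without any 1 of B51B, B4B9, B03E, T0_2, T0_3, T0_5 and T0_6 it was 1, as the adjusted p of Lss then lay between 0.0514 and 0.0819.

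Some enzymes that turn cholesterol into bile acids fell too. Cyp8b1, the sterol hydroxylase that makes cholic acid (chr9:121914356-121916305, minus strand), was at 0.814 to 36.6 CPM in TLS livers (median 16.3 CPM), 3.85 to 217 CPM in control livers (median 90.7 CPM) and 33 to 235 CPM in T0 livers (median 154 CPM). Only TLS animal DDF3 reached the lowest T0 liver, T0_1. The log2 fold change was -2.92 ± 0.65 (edgeR adjusted p = 0.0216, and 0.0709 without T0_2). Cyp7b1, the oxysterol hydroxylase of the alternative pathway, was at 5.33 to 16.4 CPM in F and 165 to 241 CPM in M TLS livers, against 12.1 to 45.2 CPM in F and 334 to 484 CPM in M T0 livers (-1.07 ± 0.26, adjusted p = 0.0369), and Akr1d1, the steroid reductase both pathways share, fell by 0.97 ± 0.24 on the log2 scale (adjusted p = 0.0402). The first and rate-limiting enzyme, Cyp7a1, was not called, at 18.1 to 103.3 CPM in TLS livers and 37.5 to 107.1 CPM in T0 livers (-0.27 ± 0.34, adjusted p = 0.754). The export pump Abcb11 gave -0.55 ± 0.21 (adjusted p = 0.191). Of 25 genes of bile acid synthesis and transport, 0 were higher and 3 lower, and the median was -0.24. No gene of the list was called without T0_2, and 1 was called without any 1 of B51B, B4B9, T0_4, T0_5, T0_6 and T0_8. The call of Cyp7b1 was also lost without B03E, A5DA or T0_7, with adjusted p between 0.0511 and 0.0871 over its losses, and that of Akr1d1 without E46E or T0_3, between 0.0506 and 0.0873.

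Major urinary proteins, small lipocalins that rodent liver secretes for urinary scent marking, were the list with the lowest median. Of 18 genes tested, 7 fell and 0 rose, 14 had an unadjusted p below 0.05, and the median log2 fold change was -1.46. Mup15 was at 0, 0, 5.52 and 1.68 CPM in the F and 28.9, 6.99, 26.2 and 32.5 CPM in the M TLS livers, against 43.2, 60.7, 62.2 and 36.4 CPM in the F and 189, 153, 761 and 159 CPM in the M T0 livers (-4.05 ± 0.71, adjusted p = 0.00393). No TLS liver overlapped the T0 livers. Mup9 fell by 3.96 ± 0.60 on the log2 scale (adjusted p = 0.000522), Mup17 by 3.96 ± 0.83 (adjusted p = 0.0145), Mup18 by 3.06 ± 0.76 (adjusted p = 0.0437), Mup19 by 2.14 ± 0.54 (adjusted p = 0.0437) and Mup14 by 1.43 ± 0.35 (adjusted p = 0.0402). Mup21 was at 21.2 to 78.8 CPM in M and 1.27 to 7.42 CPM in F TLS livers, against 380 to 626 CPM in M and 4.99 to 7.54 CPM in F T0 livers (-2.12 ± 0.42, adjusted p = 0.00943). TLS minus control was -1.80 for Mup21 (adjusted p = 0.023) and -2.07 for Mup15 (adjusted p = 0.11), and the control median of Mup15 was 26.5 CPM. Mup3, one of the most abundant members, was at 247 to 7327 CPM in TLS livers and 1290 to 12890 CPM in T0 livers and was not called (-1.12 ± 0.35, adjusted p = 0.106). Mup20, the male pheromone darcin, was at 55.6 to 198 CPM in F and 3128 to 4395 CPM in M TLS livers, and at 28.5 to 125.7 CPM in F and 3209 to 17080 CPM in M T0 livers, which overlapped in both sexes.

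The Mup genes are closely related copies in one cluster on chromosome 4, so counting can move reads between them, and a value of one member is uncertain where its copies are alike. The promoters of 4 members that fell are shown as an example of how alike the copies are around their start. Most of each window lies before the start and is not transcribed, so the windows do not measure the sharing of reads. Each window runs from 250 bases before to 50 bases after the RefSeq start in GRCm38.p6, minus strand, 5′ to 3′, and capitals mark the TATA-box sequence TATATAA.
Mup9: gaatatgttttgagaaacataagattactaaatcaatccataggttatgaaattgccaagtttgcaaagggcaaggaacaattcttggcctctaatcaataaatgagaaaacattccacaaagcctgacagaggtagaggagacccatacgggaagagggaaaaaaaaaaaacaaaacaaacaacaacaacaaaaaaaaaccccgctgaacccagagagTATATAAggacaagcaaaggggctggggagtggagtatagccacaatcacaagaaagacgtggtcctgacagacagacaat
Mup15: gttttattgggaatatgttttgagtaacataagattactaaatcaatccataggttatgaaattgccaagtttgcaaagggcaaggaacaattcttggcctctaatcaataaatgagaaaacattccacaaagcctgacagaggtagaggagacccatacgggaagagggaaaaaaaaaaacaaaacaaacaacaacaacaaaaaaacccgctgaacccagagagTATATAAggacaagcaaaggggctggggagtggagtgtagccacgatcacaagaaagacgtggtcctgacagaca
Mup17: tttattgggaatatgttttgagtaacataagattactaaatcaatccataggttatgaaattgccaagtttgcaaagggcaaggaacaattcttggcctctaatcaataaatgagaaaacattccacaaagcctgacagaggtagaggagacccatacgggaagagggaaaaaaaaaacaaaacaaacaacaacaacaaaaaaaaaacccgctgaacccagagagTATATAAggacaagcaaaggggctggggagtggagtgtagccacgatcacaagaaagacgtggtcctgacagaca
Mup21: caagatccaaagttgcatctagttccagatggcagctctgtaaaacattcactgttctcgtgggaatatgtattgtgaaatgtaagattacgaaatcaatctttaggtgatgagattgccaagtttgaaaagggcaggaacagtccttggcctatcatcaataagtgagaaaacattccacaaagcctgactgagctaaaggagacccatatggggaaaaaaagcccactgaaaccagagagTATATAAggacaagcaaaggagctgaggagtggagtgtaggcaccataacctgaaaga

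The windows lie at chr4:60421903-60422202 for Mup9, chr4:61439655-61439954 for Mup15, chr4:61595783-61596082 for Mup17 and chr4:62150792-62151091 for Mup21. Over aligned bases, gaps left out, Mup9 was identical to Mup15 at 99% and to Mup17 at 98.6%, Mup15 and Mup17 were identical at 100%, and Mup21 was identical to Mup9 at 86.9%. TATATAA, searched on both strands, was found in 13 of the 14 Mup promoters of the table and in 3.24% of all 32851 promoters. A match describes the letters only. Mup21 is the least alike of the 4. The number of family members called lower was 4 without any 1 of TLS animals B51B, B4B9 and B03E and of T0_1, T0_2, T0_3, T0_7 and T0_8. The calls of Mup9, Mup15, Mup17 and Mup21 held without any single library. Those of Mup14, Mup18 and Mup19 did not. Mup14 lost its call without any 1 of B51B, B4B9, B03E, DDF3, A5DA, E46E and the T0 animals other than T0_4 (adjusted p 0.0504 to 0.101), Mup18 without any 1 of B51B, B4B9, B03E, A5DA, E46E, T0_1, T0_2, T0_3, T0_7 and T0_8 (0.0516 to 0.12), and Mup19 without any 1 of B51B, B4B9, B23B, B03E and the T0 animals other than T0_6 (0.0537 to 0.113).

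Some other genes that mark the sex of a mouse liver also fell. Of 38 sex-biased genes tested, 5 fell and 0 rose, 15 were positive, 15 had an unadjusted p below 0.05, and the median was -0.27. The 5 were Cyp7b1, described above, and Cyp3a44, Cyp3a41a, Sult3a1 and Hsd3b5. Cyp3a44, a cytochrome of female liver, was at 0.267, 0.509, 16.9 and 2.63 CPM in F TLS livers and at 51.7 CPM or more in each of the F T0 livers, with a mean of 75.1 ± 27.1 CPM (SD, n = 4), and at or below 0.233 CPM in every M liver of either group (-3.72 ± 0.77, edgeR adjusted p = 0.0137). Its neighbour Cyp3a41a, a close paralog whose reads may be shared with it, was at 0.267 to 16.2 CPM in F TLS livers and 10.2 to 162 CPM in F T0 livers (-3.55 ± 0.82, adjusted p = 0.03). Sult3a1, a female sulphotransferase, was at 0 to 23.2 CPM in F TLS livers and 59.8 to 131.9 CPM in F T0 livers (-2.95 ± 0.74, adjusted p = 0.0442). On the male side, Hsd3b5, a hydroxysteroid dehydrogenase, was at 69.4, 1.35, 51.7 and 61.1 CPM in M TLS livers and 273, 230, 202 and 216 CPM in M T0 livers (-2.83 ± 0.67, adjusted p = 0.0353). Outside the list, Selenbp2, a selenium-binding protein also higher in M livers, was at 342, 16.2, 101.2 and 217 CPM in M TLS livers and at 830 to 1135 CPM in M T0 livers (-2.18 ± 0.47, adjusted p = 0.0155). Elovl3, a male-biased fatty acid elongase, missed the threshold (-1.61 ± 0.54, adjusted p = 0.144). TLS minus control gave -3.55 for Cyp3a44 (adjusted p = 0.0183), -1.18 for Hsd3b5 (adjusted p = 0.347) and -0.74 for Selenbp2 (adjusted p = 0.402).

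The number of the 38 sex-biased genes called lower was 1 without any 1 of B51B, B4B9, B03E and T0_2, 2 without any 1 of T0_5, T0_6 and T0_8, and 3 without any 1 of A5DA, E46E, T0_4 and T0_7. Cyp3a44 held without any single library, as did Selenbp2, which is not among the 38. Cyp3a41a lost its call without any 1 of B51B, B4B9, B03E and T0_2 (adjusted p 0.0602 to 0.103), Hsd3b5 without any 1 of B51B, B4B9, B03E, E46E, T0_2, T0_5, T0_6 and T0_8 (0.0508 to 0.0603), and Sult3a1 without any 1 of B51B, B4B9, B03E, A5DA, E46E and the 8 T0 animals (0.0522 to 0.115).

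Among the conjugating enzymes, 4 fell and 1 rose of 40 tested, with a median of -0.46 and 36 of 40 not positive. The rise was that of Sult1e1, the oestrogen sulphotransferase (chr5:87575969-87591594, minus strand), which was at 11.2, 3.46, 3.12 and 2.48 CPM in the F and 22, 21.6, 3.44 and 23.2 CPM in the M TLS livers. T0 livers had 0.179, 1.36, 0.429 and 0.529 CPM in F and 0, 0.233, 0.107 and 0 CPM in M mice. Every TLS liver was above every T0 liver (5.37 ± 0.90, edgeR adjusted p = 0.00203), and TLS minus control was 4.77 (adjusted p = 0.00592). The glutathione transferase Gstm2 was at 15.9 to 50.4 CPM in TLS livers and 42.2 to 161 CPM in T0 livers (-1.47 ± 0.27, adjusted p = 0.00508), and its paralog Gstm4 fell by 1.25 ± 0.29 on the log2 scale (adjusted p = 0.0246). Sult1b1, a sulphotransferase of thyroid hormones and phenols, fell by 0.96 ± 0.24 (adjusted p = 0.0437). Hsd17b2, which oxidises oestradiol and testosterone to weaker steroids, was in no list and is named after its values were seen. It was at 46.9 to 87.9 CPM in TLS livers, 59.7 to 135.2 CPM in control livers and up to 225 CPM (median 160.2 CPM) in T0 livers, without overlap between TLS and T0 (-1.46 ± 0.18, adjusted p = 6.46e-05). Cyp2j5, an epoxygenase, fell by 0.78 ± 0.20 (adjusted p = 0.0442), and with Cyp3a44 and Cyp3a41a it was 1 of 3 cytochromes called, all lower, of 33 xenobiotic cytochromes with a median of -0.08.

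Sult1e1, Gstm2 and Hsd17b2 held without any 1 library. Gstm4 lost its call without any 1 of B4B9, T0_2, T0_4 and T0_7 (adjusted p 0.0504 to 0.0621), Cyp2j5 without any 1 of B51B, B4B9, B03E, DDF3, A5DA, E46E and the T0 animals other than T0_1 (0.0592 to 0.114), and Sult1b1 without any 1 of B51B, B4B9, B03E, DDF3, A5DA, E46E, 47BE and the T0 animals other than T0_1 (0.0512 to 0.0884). The number of conjugating enzymes called lower was then 1 without any 1 of B4B9, T0_2, T0_4 and T0_7 and 2 without any 1 of B51B, B03E, A5DA, E46E, T0_3, T0_5, T0_6 and T0_8. The number of cytochromes called was 1 without any 1 of B51B, B4B9, B03E and T0_2.

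In the circadian clock, 1 of 18 genes rose and 1 fell, with a median of 0.13. Nr1d1, the nuclear receptor REV-ERB alpha that represses Arntl and Nfil3 (chr11:98767932-98775333, minus strand), was at 24.9 to 43.4 CPM in TLS livers (median 29 CPM), 7.03 to 35.6 CPM in control livers (median 17.6 CPM) and 70.5 to 127.3 CPM in T0 livers (median 84.1 CPM). TLS and T0 livers did not overlap (-1.43 ± 0.23, edgeR adjusted p = 0.00103). Control minus T0 was larger, at -2.16 (adjusted p = 1.53e-05), and TLS minus control was 0.73 (adjusted p = 0.0927). Nfil3, a repressor of clock output genes, was at 11.9 to 43 CPM in TLS livers and 10.8 to 19.7 CPM in T0 livers, and 7 of 8 TLS livers were above every T0 liver (0.95 ± 0.19, adjusted p = 0.0102). The control livers, at 14.7 to 31.8 CPM, overlapped both groups, with TLS minus control at 0.48 (adjusted p = 0.183). Dbp (-0.57 ± 0.29, adjusted p = 0.358), Per2 (0.66 ± 0.46) and Bhlhe41 (-1.26 ± 0.40, adjusted p = 0.109) were not called. Arntl was at 0.254 to 2.96 CPM in TLS livers and 0.132 to 2.15 CPM in T0 livers. The hour at which tissue was taken is not given in the labels. Without B4B9, 2 clock genes were called lower, and without A5DA or T0_4, 2 were called higher. DESeq2 and limma each called 2 higher and 2 lower.

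Few genes of glucose and lipid metabolism were called, where 1.34% of all genes tested were called. The 28 genes of fatty acid synthesis had a median log2 fold change of -0.13. Fasn, the fatty acid synthase, was at 89.6 to 494 CPM in TLS livers, 377 to 1781 CPM in control livers and 214.9 to 579 CPM in T0 livers. For Fasn, TLS minus T0 was -0.37 ± 0.34 (adjusted p = 0.652), TLS minus control -1.95 (adjusted p = 0.00517) and control minus T0 1.57 (adjusted p = 0.0323). Acss2 (-1.18 ± 0.31, adjusted p = 0.0511) and Me1 (-1.06 ± 0.31, adjusted p = 0.0864), which supply acetyl-CoA and NADPH, were each below every T0 liver in 6 of 8 TLS livers without passing the test. Foxo1, the transcription factor of the fasted liver, rose by 0.71 ± 0.18 (adjusted p = 0.0442), the 1 gene called of 25 in gluconeogenesis and fasting. Pck1, the rate-limiting enzyme of gluconeogenesis, was at 600 to 3912 CPM in TLS livers and 1681 to 2373 CPM in T0 livers (0.18 ± 0.28, adjusted p = 0.813). Scarb1, the liver receptor for high-density lipoprotein, rose by 0.77 ± 0.20 (adjusted p = 0.0443) and was the 1 gene called of 39 for lipid droplets and lipoproteins.

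None of 36 genes of fatty acid oxidation and ketogenesis was called by edgeR, with a median of 0.04 and 3 at an unadjusted p below 0.05. DESeq2 called 1 higher and 1 lower, limma 1 higher, and edgeR 1 higher without A5DA. Fgf21, the fasting hormone, was at 0.814 to 4.09 CPM in TLS livers and 0.217 to 3.19 CPM in T0 livers (0.56 ± 0.48, adjusted p = 0.617), and Igf1, the growth factor that growth hormone induces, was at 371 to 931 CPM in TLS livers and 338 to 1252 CPM in T0 livers (-0.19 ± 0.25, adjusted p = 0.765). Foxo1 lost its call without any 1 of B51B, B4B9, B03E, DDF3, E46E, T0_2, T0_3, T0_5, T0_6, T0_7 and T0_8 (adjusted p 0.055 to 0.101), and 2 genes of its list were called without B23B or A5DA. Scarb1 lost its call without any 1 of B51B, B03E, A5DA, E46E, 47BE and the 8 T0 animals (0.0577 to 0.109).

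**Figure D3:**
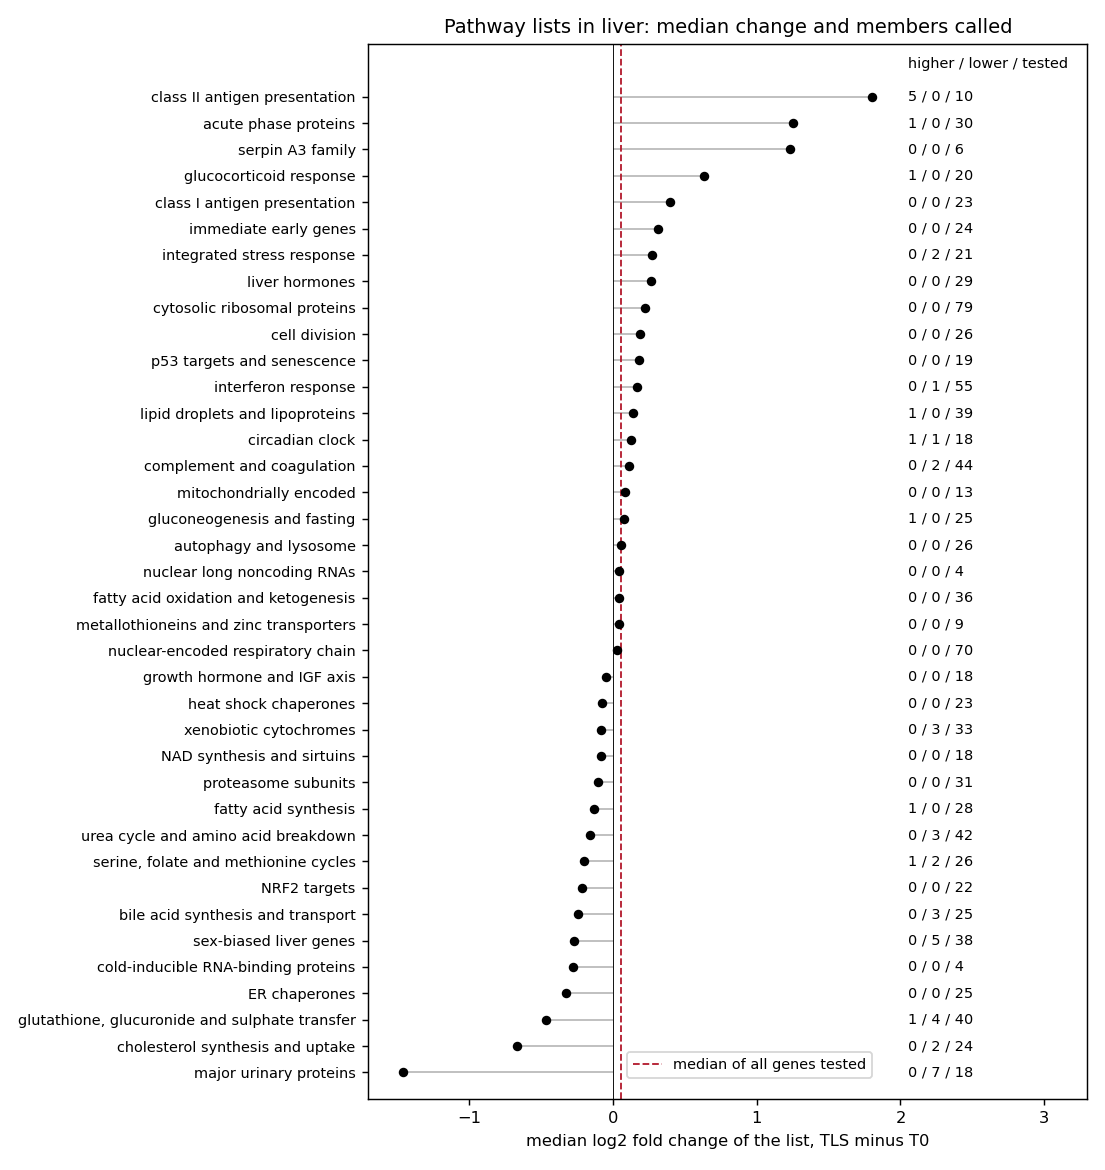
Median log2 fold change of TLS minus T0 (horizontal axis) of each of the 38 pathway lists, in order of the median. The numbers beside each list count its members called higher, called lower and tested, and the dashed line is the median over all genes, 0.05. Major urinary proteins (-1.46) and class II antigen presentation (1.80) lie at the ends.

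Of the genes that respond to cold and to cell stress, few passed the test. Among 4 cold-inducible RNA-binding proteins 0 were called, 2 had an unadjusted p below 0.05, and limma called 1 higher. Cirbp was at 11.6 to 48.3 CPM in TLS livers and 13.3 to 24 CPM in T0 livers (0.54 ± 0.20, edgeR adjusted p = 0.191), and Rbm3 at 9.34 to 26.6 CPM in TLS livers and 13.8 to 35.4 CPM in T0 livers (-0.25 ± 0.23, adjusted p = 0.642). Of 25 ER chaperones, 22 had a negative log2 fold change, with a median of -0.33, 5 at an unadjusted p below 0.05 and 0 called. Their median was -0.54 with F libraries only and -0.05 with M libraries only. For ER chaperones DESeq2 called 0 and limma 6, all lower, and edgeR called 2 lower without A5DA. Hspa5, the main chaperone of the endoplasmic reticulum, gave -0.67 ± 0.24 (adjusted p = 0.163). In the integrated stress response, Trib3, a pseudokinase induced by amino acid shortage, was at 2.54 to 11.5 CPM in TLS livers, 1.83 to 4.31 CPM in control livers and 6.47 to 23.1 CPM in T0 livers (-1.19 ± 0.28, adjusted p = 0.0351). With Cth it made 2 genes lower of 21, whose median was 0.27. Trib3 lost its call without any 1 of B03E, DDF3, E46E, T0_2 and T0_8 (adjusted p 0.055 to 0.0986). The edgeR test, DESeq2 and limma called 0 of 23 heat shock chaperones (3 at an unadjusted p below 0.05), 13 mitochondrially encoded genes (0), 70 genes of the nuclear-encoded respiratory chain (0) and 79 ribosomal proteins (4). The edgeR test called 0 of 19 p53 targets (4 at an unadjusted p below 0.05, and 1 higher by DESeq2), 26 genes of autophagy and lysosome (5, and 1 lower by DESeq2 and by limma) and 18 genes of the growth hormone axis (2, and 1 lower by limma), and without 47BE it called 1 gene in each of these 3 lists.

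Of 26 cell division genes 0 were called by edgeR, DESeq2 or limma and 0 had an unadjusted p below 0.05, whereas some histone genes rose. The replication-dependent histones were in no list and were chosen as a family after values were seen, so their count describes these data only. Of 10 genes with such a symbol, 4 rose and 0 fell, with a median of 1.16. H1f2, a linker histone (chr13:23738807-23739531), was at 39.2 to 214 CPM in TLS livers (median 94.6 CPM), 29.2 to 57.3 CPM in control livers (median 40.6 CPM) and 14.2 to 55.6 CPM in T0 livers (median 21.7 CPM). Except in DDF3, every TLS liver was above every T0 liver (1.96 ± 0.30, edgeR adjusted p = 0.000522), and TLS minus control was 1.42 (adjusted p = 0.0132). H4c8, an H4 core histone, rose by 2.08 ± 0.36 (adjusted p = 0.00216). H4c9 (1.35 ± 0.26, adjusted p = 0.00705) and H1f3 (3.00 ± 0.52, adjusted p = 0.00216, at 0.216 to 2.25 CPM in TLS livers and 0 to 0.286 CPM in T0 livers) rose too and are named after their values were seen. All 4 held without any single library. Most histone transcripts end without a poly(A) tail, so a library of polyadenylated RNA holds only a part of them.

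Some genes of antigen presentation by class II, the display of peptides to helper T cells, rose. Of 10 genes tested 5 rose and 0 fell by edgeR, with a median log2 fold change of 1.80, and all 10 were positive. DESeq2 called 7 of them and limma 0, with a median of 0.76 by limma. H2-Ab1, a class II beta chain (chr17:34257689-34269419, plus strand), was at 83.5, 134.7, 39.3 and 25.1 CPM in the F and 13.4, 156, 15.2 and 13.6 CPM in the M TLS livers, against 15.2, 19.3, 17.5 and 23.3 CPM in the F and 11.1, 9.1, 7.31 and 11.5 CPM in the M T0 livers. Animals B51B, B4B9 and A5DA stood highest and 5 of 8 TLS livers were above every T0 liver (2.13 ± 0.44, edgeR adjusted p = 0.0124). H2-Eb1 rose by 2.04 ± 0.45 (adjusted p = 0.018), H2-DMb1 by 1.90 ± 0.46 (adjusted p = 0.0369), Cd74, the invariant chain, by 1.87 ± 0.46 (adjusted p = 0.0381) and H2-Aa by 1.73 ± 0.41 (adjusted p = 0.0316). TLS minus control was 1.07 for H2-Ab1 (adjusted p = 0.189), and control minus T0 was 1.05 (adjusted p = 0.256). Without A5DA the list's median was 1.17 and 1 of 10 was called, and without both A5DA and B51B the median was 0.95 and 0 were called.

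Some markers of immune cells rose as well. Marco, a scavenger receptor of liver macrophages, was at 6.15 to 334 CPM in TLS livers (median 21.8 CPM) and 1.23 to 14.6 CPM in T0 livers (median 7.03 CPM; 3.25 ± 0.79, edgeR adjusted p = 0.0403), and was the 1 gene called of 11 Kupffer cell markers, whose summed level was 68.7 to 1590 CPM in TLS livers and 153 to 292 CPM in T0 livers. Marco was at 3.66 to 33.8 CPM in control livers, with TLS minus control at 2.21 (adjusted p = 0.128), and limma called 0 of the 11 markers. The median log2 fold change of the 11 was 0.61, but -0.03 without A5DA and -0.44 by limma. Their sum was 1590 CPM in A5DA and at most 681 CPM in the other TLS livers. Its median was 245.5 CPM in TLS, 289 CPM in control and 228.5 CPM in T0 livers. Igha, the constant region of immunoglobulin A heavy chains, was at 11.5, 12.7, 4.3 and 4.09 CPM in the F and 8.74, 31.2, 4.5 and 3.13 CPM in the M TLS livers and at 0.572 to 1.76 CPM in the T0 livers. Every TLS liver was above every T0 liver (3.22 ± 0.43, adjusted p = 0.000108), TLS minus control was 2.19 (adjusted p = 0.00592), and the call held without any single library. Igha was the 1 gene called of 10 tested markers of B and plasma cells. Of these 10, 5 were positive, and their median log2 fold change was near zero (0.0008). The summed level of the 12 listed markers was 18.7 to 121.1 CPM in TLS livers and 11.7 to 22.5 CPM in T0 livers. The median of this sum was 29.0 CPM in TLS, 38.6 CPM in control and 17.2 CPM in T0 livers. Ighg2b, another heavy chain, named after its values were seen, was also higher in every TLS liver (4.16 ± 0.78, adjusted p = 0.00562). Igkc (2.46 ± 0.66, adjusted p = 0.0614) and Jchain (1.53 ± 0.42, adjusted p = 0.0614) missed the threshold. Itgb7, the integrin that homes lymphocytes to the gut, rose by 2.34 ± 0.46 (adjusted p = 0.00751), with 6 of 8 TLS livers above every T0 liver. Ccl5, a T-cell chemokine, rose by 2.06 ± 0.53 (adjusted p = 0.0469) and was the 1 gene called of 10 tested markers of T and NK cells. The summed level of the 16 listed T and NK markers was 4.24 to 67.9 CPM in TLS livers and 4.49 to 11.7 CPM in T0 livers. The median of this sum was 12.5 CPM in TLS, 11.6 CPM in control and 7.76 CPM in T0 livers. DESeq2 called 5 of the 10 and limma 1. The defining markers Cd8a, Gzmb and Ncr1 of these cells were too low to be tested. The summed class II level was 587 CPM in B51B, 719 CPM in B4B9 and 845 CPM in A5DA, 72.8 to 203 CPM in the other 5 TLS livers and 66 to 144.2 CPM in T0 livers. The median of this sum was 188 CPM in TLS, 185 CPM in control and 95.4 CPM in T0 livers. In a bulk library, more cells of a type and more RNA per cell cannot be told apart, and the part of immune cells in the class II result was not tested.

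H2-Ab1, Igha, Ighg2b and Itgb7 held with any single library left out. H2-Eb1 lost its call without A5DA (adjusted p 0.0604). H2-DMb1 lost it without any 1 of B4B9, A5DA, T0_1, T0_2, T0_5, T0_6, T0_7 and T0_8 (0.0577 to 0.135), H2-Aa without any 1 of B51B, B4B9, A5DA, T0_1, T0_2, T0_3, T0_5 and T0_7 (0.0519 to 0.108), and Cd74 without any 1 of B51B, B4B9, A5DA and the T0 animals other than T0_4 (0.0572 to 0.143). Marco lost it without any 1 of B51B, B4B9, A5DA and the T0 animals other than T0_4 (0.0577 to 0.103), and Ccl5 without any 1 of B51B, B4B9, A5DA, E46E and the 8 T0 animals (0.055 to 0.185). The number of class II genes called was 2 without any 1 of B4B9, T0_1, T0_2, T0_5 and T0_7 and 3 without any 1 of B51B, T0_3, T0_6 and T0_8. Without 47BE, 4 T and NK markers and 3 B and plasma cell markers were called, 2 T and NK markers without B23B and 2 B and plasma cell markers without T0_1.

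**Figure D4:**
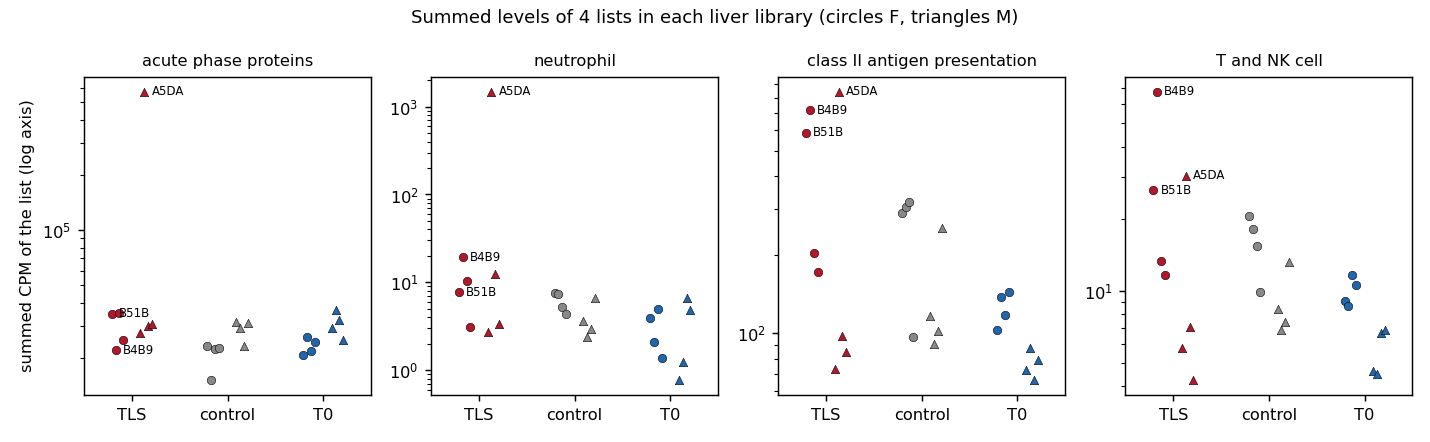
Summed CPM (vertical log axis) of the acute phase proteins, the neutrophil markers, the class II genes and the T and NK cell markers in each TLS, control and T0 liver, with circles for F and triangles for M mice. TLS animal A5DA stands at 572000 CPM of acute phase proteins and 1486 CPM of neutrophil markers, and A5DA, B4B9 and B51B stand highest in both immune lists on the right.

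Among the acute phase proteins, which the liver secretes in inflammation, Hp rose, and 1 TLS animal had far higher levels of many. Their sum over the 31 listed genes, 30 of them tested, was 572000 CPM in A5DA. It was 22080 to 35070 CPM in the other 7 TLS livers and 20710 to 36630 CPM in the T0 livers. Hp, haptoglobin (chr8:109575128-109579172, minus strand), was at 7144, 4510, 6044 and 5254 CPM in the F and 4897, 87510, 5303 and 3370 CPM in the M TLS livers, against 2554, 1909, 1778 and 2142 CPM in the F and 2772, 4291, 3440 and 2835 CPM in the M T0 livers. All but 47BE of the TLS livers were above every T0 liver (2.27 ± 0.50, edgeR adjusted p = 0.0191), and the call held without any single library, A5DA included. Control livers were at 1309 to 3563 CPM, with TLS minus control at 2.26 (adjusted p = 0.0204). Hp was the 1 gene of the 30 that edgeR called, against 4 by DESeq2 and 2 by limma, while 20 had an unadjusted p below 0.05 and the median was 1.26, against 0.18 without A5DA. Saa3 was at 10260 CPM in A5DA, 6.75 to 18.7 CPM in the other TLS livers and 2.22 to 13 CPM in T0 livers (6.56 ± 1.83, adjusted p = 0.0748), and A5DA also stood highest for Hpx, Orm2 and Lcn2. The neutrophil genes S100a8 and S100a9 were at 290 and 665 CPM in A5DA and at most 2.69 and 3.89 CPM in the other TLS livers. The metallothionein Mt1 was at 5832 CPM in A5DA, 22.7 to 887 CPM in the other TLS livers and 8.68 to 327 CPM in T0 livers (3.60 ± 1.12, adjusted p = 0.112). With other animals left out, the number of acute phase genes called was 6 without 47BE, 3 without B23B and 2 without DDF3 or E46E.

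In complement and coagulation 2 of 44 genes fell, against 0.75% of all genes tested, with a median of 0.11. Cfd, complement factor D, is made mainly in fat. It was at 0 to 0.533 CPM in TLS livers, 0 to 56.8 CPM in control livers and 0 to 7.76 CPM in T0 livers, where the M mice were at 1.55 to 7.76 CPM (-4.21 ± 0.96, edgeR adjusted p = 0.0245). The call was lost with DESeq2 (adjusted p = 0.0586) and limma (adjusted p = 0.135). Of the 10 adipocyte markers, Adipoq, Lep, Retn, Plin1 and Ucp1 were too low to be tested, and the summed level was 38.5 to 3014 CPM in TLS livers and 548 to 4723 CPM in T0 livers. As Cfd was low too, this sum came mainly from Car3, Cidec, Fabp4 and Lipe, and it does not measure carried-over fat. The part of carried-over fat in the values of Cfd was not tested. F11, coagulation factor XI, fell by 0.70 ± 0.18 on the log2 scale (adjusted p = 0.0403), and control minus T0 was -0.97 (adjusted p = 0.00532). Of 55 genes of the interferon response, edgeR called 0 higher and 1 lower, the sensor Ifih1 (-0.74 ± 0.18, adjusted p = 0.0403). Over all genes tested, 0.588% were called higher and 0.75% lower. Of the 55, 34 were positive, with a median of 0.17, against -0.28 by limma. DESeq2 called 3 higher and 1 lower, and limma 1 lower. Without 47BE edgeR called 3 of them higher, and without B23B 2. Cfd lost its call without DDF3, E46E or T0_8 (adjusted p 0.055 to 0.0737), F11 without any 1 of B51B, B03E, DDF3, E46E, T0_1, T0_2, T0_5, T0_7 and T0_8 (0.0504 to 0.0806), and Ifih1 without any 1 of B51B, B03E, DDF3, A5DA, E46E, T0_2, T0_3, T0_5, T0_7 and T0_8 (0.0531 to 0.0828).

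**Figure D5:**
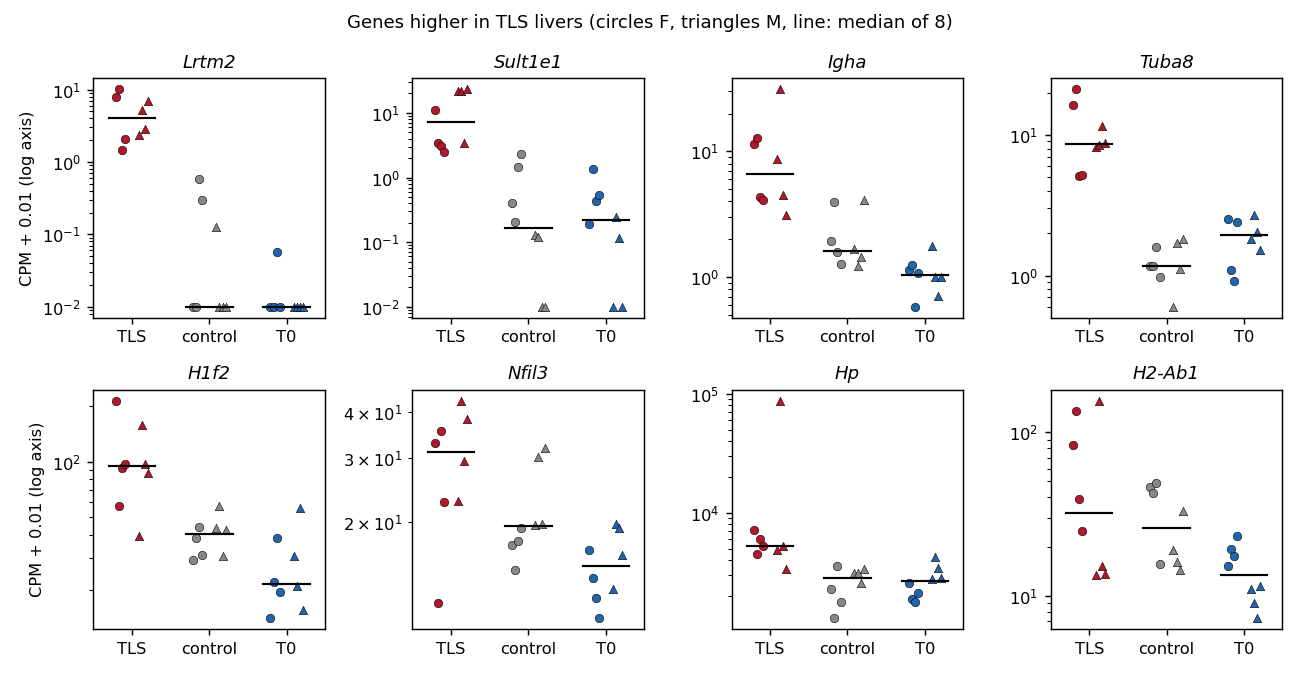
CPM in each liver library (vertical log axis, with 0.01 added) for 8 genes that were higher in TLS, in TLS, control and T0 livers. Circles are F mice, triangles M mice, and the line is the median of 8. In Lrtm2, Sult1e1, Igha and Tuba8 every TLS liver lay above every T0 liver, and in Nfil3 it was 7 of 8.

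Lrtm2, a leucine-rich repeat membrane protein of neurons (chr6:119315133-119330766, minus strand), is named after its values were seen. It had 643 counts over the 8 TLS livers, 12 over the control livers and 1 over the T0 livers, and it was at 8, 10.1, 1.43 and 2.04 CPM in the F and 2.32, 5.14, 2.87 and 6.87 CPM in the M TLS livers. The ratio of TLS to T0, corrected for library size, was 741, with an exact 95% interval for counting error alone of 132.5 to 29300 (edgeR adjusted p = 5.91e-07, and 2.1e-05 against control). The gene lies opposite Cacna2d4, which had too few counts to be tested, and whether the count used strand is not given. Tuba8, an alpha tubulin, was at 5.11 to 21.1 CPM in TLS livers, 0.591 to 1.81 CPM in control livers and 0.905 to 2.68 CPM in T0 livers, with every TLS liver above every T0 liver (2.49 ± 0.30, adjusted p = 6.26e-05). Gpc1, a cell-surface proteoglycan, rose by 2.02 ± 0.40 (adjusted p = 0.00942) and held without any single library. Dsg1c, a desmosomal cadherin, rose by 1.90 ± 0.45 (adjusted p = 0.0351), but the call was lost without any 1 of B51B, T0_1, T0_2, T0_3, T0_7 and T0_8 (0.0517 to 0.0806). Hectd2os, an antisense transcript of Hectd2 (chr19:36614052-36705641, minus strand), was at 0.799 to 9.83 CPM in TLS livers, 14.7 to 78.9 CPM in control livers and 27.7 to 92.7 CPM in T0 livers, without overlap (-3.17 ± 0.40, adjusted p = 6.46e-05). Hectd2 itself gave a log2 fold change of 0.11 (adjusted p = 0.953), but reads of the pair cannot be told apart if strand was not used. Raet1d, a ligand of the NKG2D receptor, fell by 1.73 ± 0.39 (adjusted p = 0.0196, and 0.0512 without T0_2 or 0.0544 without T0_5). It overlaps Raet1e on the same strand, so its reads may be shared.

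Whether the change differed between the sexes was tested next. The difference between the M and the F effect of TLS against T0 passed the test in 1 of 13604 genes (0.00735%), while 327 (2.4%) had an unadjusted p below 0.05, and DESeq2 called 9 and limma 10. The gene was Cyp2b9, a female-specific cytochrome. It was at 6.69, 2.3, 3.56 and 3.78 CPM in M TLS livers, against 0.469, 0.525, 0 and 0.0411 CPM in M T0 livers, and at 214 to 363 CPM in F TLS livers, against 226 to 459 CPM in F T0 livers. The log2 fold change was 4.03 ± 0.57 in M and -0.26 ± 0.43 in F mice, a difference of 4.29 ± 0.71 (edgeR adjusted p = 0.0397). The next 4 by p did not pass the test. Slc22a26, an organic anion transporter, was at 0.972 to 3.17 CPM in M TLS livers and at most 0.525 CPM in M T0 livers, with a difference of 3.46 ± 0.64 (adjusted p = 0.0848). Cyp2c69 and Cyp2c40, paralogous cytochromes, gave 3.25 ± 0.66 and 3.08 ± 0.63 (adjusted p = 0.144 each). Avpr1a, the vasopressin receptor of hepatocytes, was at 6.13 to 10.4 CPM in F TLS livers and 13.1 to 22.3 CPM in F T0 livers, and at 5.26 to 14.9 CPM in M TLS livers and 4.35 to 4.64 CPM in M T0 livers (1.97 ± 0.40, adjusted p = 0.144). The call of Cyp2b9 was lost without any 1 of B51B, B4B9, B03E, DDF3, E46E, 47BE, T0_2, T0_4, T0_7 and T0_8 (adjusted p 0.058 to 0.145), which left 0 genes called, while 4 were called without B23B and 2 without T0_6.

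Finally, the change in liver was set against the mean change in the other 3 tissues in a joint fit. Of 20888 genes, 774 (3.71%) differed, 431 (2.06%) with a higher and 343 (1.64%) with a lower change in liver, and 1309 were called without animal B23B. With the animal as a block, and without the 2 kidney libraries whose sex letter differed from that of the animal, 675 were called, 568 of them shared. The levels in this paragraph are on the scale of the joint fit and are means ± SD. Lrtm2 had the smallest p: it was at 8.52 ± 5.50 CPM in TLS and 0.0105 ± 0.0296 CPM in T0 livers (n = 8 each), but at 61.5 ± 5.40 CPM in TLS and 61.7 ± 6.56 CPM in T0 cortex. The difference was 8.78 ± 0.65 (SE, adjusted p = 2.34e-18). Crot, the carnitine octanoyltransferase of peroxisomes, changed by -1.19 in liver and by 0.41 in cortex, 0.14 in kidney and 0.15 in WAT (difference -1.42 ± 0.20, adjusted p = 2.76e-06). Trim13, a ubiquitin ligase of the endoplasmic reticulum, changed by -1.53 in liver and 0.32, 0.18 and -0.13 in cortex, kidney and WAT (difference -1.66 ± 0.25, adjusted p = 1.08e-05). Tmem268 (difference 1.40 ± 0.20), Nt5c2, a cytosolic nucleotidase (0.63 ± 0.09), and Baiap2, an adaptor of the actin skeleton (1.23 ± 0.18), had a higher change in liver. Each of the 6 kept its call without any single animal, but the 6 were chosen by the smallest p of this same test. Some genes described above also differed between liver and the other tissues in this test: Bhmt (-2.79 ± 0.64, adjusted p = 0.00542), Cth (-1.43 ± 0.22, adjusted p = 1.55e-05), Nsdhl (-1.26 ± 0.27, adjusted p = 0.00276), Tuba8 (2.07 ± 0.36, adjusted p = 0.00017) and H1f2 (1.58 ± 0.24, adjusted p = 1.22e-05). Igha did not pass it (1.13 ± 0.87, adjusted p = 0.547), with a log2 fold change of 3.21 in liver, 3.60 in cortex, -0.03 in kidney and 2.65 in WAT.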

How the data were processed

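The authors deposited one table of read counts per gene for all tissues. Its counts are whole numbers, not normalized. Per the labels' protocols, tissues were washed by PBS perfusion, RNA was poly(A)-selected and libraries (NEBNext Ultra II) were sequenced on a NovaSeq 6000. The submitters' processing notes name STAR 2.7.10, DESeq2, DESeq, mm10 and GRCm38. The first line of the table names featureCounts and the words raw counts and corrected, whose meaning there is unknown, and neither strand nor annotation is stated. Ages come from the header of the table. The table holds 55401 entries with 55291 distinct symbols.

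The libraries were grouped by tissue and treatment labels, and sex was read from the label under the tag cell line. Genes passing filterByExpr (minimum count 10) in the 24 liver libraries were tested with edgeR 4.0.16 (R 4.3.3): TMM scaling, robust quasi-likelihood fit, groups TLS, control and T0 with sex as a covariate, and an adjusted p (Benjamini-Hochberg) below 0.05 over every gene tested. SE is the log2 fold change divided by the square root of F, and CPM values divide counts by the total over tested genes times the TMM factor. The M minus F difference used group by sex, and the tissue difference used all 95 libraries. DESeq2 1.42.0, limma 3.58.1, RLE factors, other filters, covariates and subsets, and each library left out were the alternatives. Scripts were tested on simulated data.

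Depth of 4031533 to 29269511 counts per library limits the precision of genes with few counts. The interval given for Lrtm2 covers counting error only, whereas each SE comes from the fit and includes the spread between animals. Named genes are the 12 called genes that rose most and the 12 that fell most, at a mean log2 CPM of 1 or more and leaving out symbols without a gene name, up to 4 members of each list with the smallest p, the 5 and 6 smallest p of the sex and tissue differences and some fixed genes. Members and lists were chosen with earlier results of these data known. Coordinates are GENCODE vM21, and for histones RefSeq, both on GRCm38. Results that rest on some genes are not reported here.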

Additional observations from a re-analysis of the deposited data

Results flagged for a closer look

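In 24 of 240 groups of 8 livers tested, 1 library stood apart from the other 7 by Dixon's test, which chance alone gives in about 1 in 20 groups, and TLS animal A5DA was that library in 13 of them. A5DA was high for Hp (87510 CPM), Hpx (73570 CPM), Orm2 (13480 CPM), Saa3 (10260 CPM), Lcn2 (7755 CPM), Nnmt (1328 CPM), S100a9 (664.8 CPM), S100a8 (289.8 CPM), Mmp9 (14.7 CPM) and Ighg2b (14.0 CPM). It was low for Pck1 (599.5 CPM), Abcb11 (109.9 CPM) and Akr1d1 (17.3 CPM). TLS animal B4B9 was high for Tgtp1 (65.2 CPM) and Itgax (5.04 CPM), and TLS animal B51B was low for Lss (10.4 CPM).

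Among T0 animals, T0_7 was low for Alb (37330 CPM), Akr1d1 (64.5 CPM) and Itgb7 (0.267 CPM). T0_2 was high for Nr1d1 (127.3 CPM). T0_1 was high for Cyp4a32 (29.3 CPM) and low for Sult1b1 (11.8 CPM). T0_3 was high for Crot (817 CPM) and was the one T0 liver with a count of Lrtm2 (0.0477 CPM).

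The change in M mice differed from that in F mice for Cyp2b9, by 4.29 on the log2 scale. The change in liver differed from the mean of cortex, kidney and WAT for Lrtm2 (8.78), Tmem268 (1.40), Baiap2 (1.23), Nt5c2 (0.63), Crot (-1.42) and Trim13 (-1.66), each by the edgeR test of the difference itself. Trim13 overlaps Dleu2 on the opposite strand, which had a log2 fold change of 0.35 in liver (adjusted p = 0.432).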

How the results depend on the processing

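All 63 named genes called for TLS against T0 kept their direction under every alternative run, and 32 kept their call with any single library left out. These genes were chosen by the main test and the alternatives reuse its libraries, so a kept direction was likely in advance. Calls among the 63 were lost for 4 genes with DESeq2, 12 with limma, 28 without the low-count filter, 35 without the sex covariate, 54 with F and 48 with M libraries only, 31 with TLS and T0 libraries only and 26 without both A5DA and B51B, the one alternative chosen after seeing the data. The number of genes called, 182 with 80 higher, was 444 with DESeq2 (262 higher, 182 lower, so 59% higher against 44%), 520 with limma (231 higher, 289 lower), 89 without the sex covariate (46 higher, 43 lower), 55 with TLS and T0 libraries only (18 higher, 37 lower), 9 in F (6 higher, 3 lower) and 22 in M livers (7 higher, 15 lower), 297 with the nuclear RNA share as covariate (1.4e+02 higher, 161 lower), 361 with the mitochondrial share (172 higher, 189 lower), and 53 higher without A5DA and B51B. With single libraries left out it ranged from 92 to 384 (40 to 214 higher, 52 to 170 lower). The cause of these shifts was not tested, except that the subsets hold fewer samples. The number of genes with a sex difference, 1, was 9 with DESeq2, 10 with limma, 1.2e+02 without the low-count filter, 0 with TLS and T0 libraries only and 0 to 4 with single libraries left out. The number with a tissue difference, 774, was 239 with limma and 523 to 1309 with single animals left out. The sign turned for 3 genes that were not called: Fasn in M livers alone (0.0087), Pck1 in F livers alone (-0.12), and Igf1 in M livers alone (0.052) and without T0_1 (2.98e-05, the other end of its range with single libraries left out being -0.36). No paired analysis was possible because TLS and T0 livers came from different animals. For the tissue difference, the replicate block by animal gave 675 genes, 568 of them shared, while deviations of a liver library and another library of the same animal correlated by a mean of 0.0198 over 71 pairs, with 7 over 0.1. Depth limits the low genes most, above all in B51B.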

Other observations

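Some further gene groups were not described above. Of 20 genes of the glucocorticoid response, 16 had a positive log2 fold change, with a median of 0.63, 12 at an unadjusted p below 0.05 and 1 called by edgeR, Sult1e1. DESeq2 called 2 of them. The median of this list was 0.20 with F libraries only and 1.10 with M libraries only. Of 22 targets of NRF2, the transcription factor of the oxidant response, 6 had a positive log2 fold change, with a median of -0.22, 7 at an unadjusted p below 0.05 and 0 called by edgeR, while DESeq2 called 1 and limma 5, all lower. Of 31 proteasome subunits 0 were called, with a median of -0.10 and 5 at an unadjusted p below 0.05, while DESeq2 called 1 lower and limma 3, and edgeR called 3 lower without B23B. Of 23 genes of class I antigen presentation 0 were called, with a median of 0.40 and 7 at an unadjusted p below 0.05, while DESeq2 called 1 higher and limma 0, and edgeR called 1 higher without 47BE. The median of the class I list was 0.25 without A5DA and 0.11 by limma.

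Markers of other liver cells were mostly not called. Of 11 markers of sinusoidal endothelium, 13 of stellate cells and 7 of cholangiocytes, edgeR, DESeq2 and limma called 0, with medians of 0.19, 0.32 and 0.59 and with 1, 1 and 2 at an unadjusted p below 0.05. For cholangiocytes the median was -0.25 with F libraries only and 1.11 with M libraries only. The summed level of the endothelial markers was 227 to 360 CPM in TLS livers and 176 to 292.5 CPM in T0 livers, and that of the stellate markers 271 to 565 CPM in TLS livers and 276 to 522 CPM in T0 livers. The 9 monocyte markers tested had a median of 1.42, and 0.52 without A5DA, with 4 at an unadjusted p below 0.05, 0 called by edgeR and limma and 1 by DESeq2. The 4 neutrophil markers tested had a median of 4.26, and 1.155 without A5DA. All 4 had an unadjusted p below 0.05, and edgeR called 0, limma 0 and DESeq2 1 of them, while edgeR called 3 without 47BE. Of 6 erythroid markers 0 were called by any of the 3 tools, with a median of 0.88 and 1 at an unadjusted p below 0.05. Of 6 genes of the serpin A3 family 0 were called by edgeR and limma and 2 by DESeq2, with a median of 1.23, and 0.28 without A5DA.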
